A study of Mus musculus with 9 samples.

Results

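Blood clotting, clot removal and the early steps of complement depend on plasma proteins that come mostly from the liver, and this account follows 43 genes of those systems through the livers of lean, obese and extract-treated mice. The genes were chosen by name, as coagulation factors, their inhibitors, fibrinolysis genes and complement components and regulators above the terminal pathway, and each was read from the transcript cluster that carries its symbol. Of the 43, 39 were measured on the array, out of 19505 gene symbols in all; *Klkb1*, *Cpb2*, *C3* and *Cfd* were not analysed here. All 39 had 1 transcript cluster each.

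Total RNA from liver of male mice was hybridised to Clariom S mouse arrays, 9 in all, 3 per group. The control group was C57BL/6JHamSlc-+/+ (wild type, non-obese) given vehicle. The other groups were C57BL/6JHamSlc-ob/ob, obese through a defect in the leptin gene, given either vehicle or an extract of *Vigna umbellata* (VE in the labels) at 100 mg/kg. Mice were 6 weeks old when bought, had 1 week to settle, ate standard chow throughout and were dosed for 42 days, the extract by oral gavage. The ob/ob mutation is in every cell of the body from conception and causes obesity, so effects of leptin loss and of obesity cannot be told apart. The design text gives 3 animals per group, and no label says how the arrays of different groups were matched or processed together. No wild-type mice given the extract were among the samples.

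Coagulation is a chain of proteases in which each zymogen activates the next, from the contact system or tissue factor down to thrombin, which turns fibrinogen into fibrin. Antithrombin, heparin cofactor II and the protein C system hold the chain in check, and plasmin later dissolves the clot. Complement is a related protease network, started by antibodies, by mannose-binding lectins or on bare surfaces, and several of its genes, like those of fibrinogen, belong to the acute phase response, in which hepatocytes change their secreted proteins during inflammation. Factor VIII, thrombomodulin and properdin come largely from endothelial cells or leukocytes instead.

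The values are log2, so a difference of 1 is a doubling on this scale, and a gene was called changed when limma's adjusted p, taken over all 22206 transcript clusters, was under 0.05. Array 3 of the ob/ob vehicle group and array 3 of the wild-type group stood apart from their groups, correlating with them at 0.948 to 0.955 against 0.980 and 0.990 between the other 2 arrays of each. These 2 arrays were picked from these same values, which narrows the spread in any fit without them. Adjusted p from such fits are not corrected for that choice. The 7 measured hepatocyte markers of 8 listed, among them albumin, had a mean of 19.13 to 19.75 log2 on every array. *Alb*, *Ttr*, *Apoa1*, *Serpina1a* and *Ahsg* reached the array maximum on at least 1 array, so that mean cannot show small changes. *Apoa1* and *Cps1* were lower in ob/ob vehicle than in wild type without overlap, by differences of −1.44 and −0.95 that did not pass the test (adjusted p = 0.114 and 0.293), and their part in the falls of *F11*, *Proc* and *C2* was not tested. Background was read from 1091 olfactory receptor clusters, which are silent in liver. On all 9 arrays 35 of the 39 genes exceeded the top of the range that holds the central 95% of those clusters (5.33 to 6.62 log2). *Thbd*, *Plat* and *Plau* were above that level on none of the arrays and *F3* on 1, so these 4 cannot be separated from background. The median of all clusters (5.07 to 5.36 log2) was below that level on every array. The shares over all clusters given below therefore include many clusters at background. Shares among clusters with signals as high as those of the 39 genes were not computed. The level was 6.62 on wild-type vehicle 3 and 6.44 on ob/ob vehicle 3, beside 5.33 to 5.74 on the other arrays. The interquartile range of all clusters was narrowest on the same 2 arrays, at 3.01 and 3.26 log2 beside 3.36 to 3.85. The part of this shared difference in the array 3 values of the 39 genes was not tested. Whole liver was measured, so fewer cells of a type and less RNA per cell cannot be told apart.

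Between ob/ob vehicle and wild type, *F11*, *Proc* and *C2* fell in ob/ob liver and none of the 39 genes rose (2.28% of all clusters were called higher). *F11* encodes factor XI, which the contact system activates; *Proc* encodes protein C, an anticoagulant protease; *C2* supplies the protease part of the classical and lectin C3 convertase. The 3 calls are 7.69% of 39, beside 2.96% of all clusters called in that comparison, and beside 0.680% called lower, a share that depends on scaling: 151 of 658 calls were lower in the deposited values and 256 of 546 after quantile normalization. All 3 were lower under both scalings and after centring each array on its median. For ob/ob vehicle against wild type the median difference of the 39 genes was −0.05, with −0.06 over all clusters. Centring moved these to 0.07 and 0.06, with 4 of the 39 differences changing sign, and quantile normalization to −0.31 and −0.02, with 7 changing sign. The groups did not overlap for 9 of the 39 genes (23.1%, beside 19.5% of all clusters), 7 lower in ob/ob (9.78% of all clusters) and 2 higher (9.71%). By the rule in the design text, an unadjusted p under 0.05 with a fold over 1.1, 9 were lower (6.72% of all clusters) and 2 higher (10.3%), together 28.2% of the 39 beside 17.0% of all clusters.

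*F11* showed the largest change. Its promoter, the 250 bases before the transcript start in the RefSeq table (GRCm38.p6, chr8:45262032-45262281, minus strand), is given 5′ to 3′ because no other gene of the set moved as far; capitals mark the letters that matched a searched motif, here TTGCNNAA on the opposite strand, which C/EBP factors bind.
F11: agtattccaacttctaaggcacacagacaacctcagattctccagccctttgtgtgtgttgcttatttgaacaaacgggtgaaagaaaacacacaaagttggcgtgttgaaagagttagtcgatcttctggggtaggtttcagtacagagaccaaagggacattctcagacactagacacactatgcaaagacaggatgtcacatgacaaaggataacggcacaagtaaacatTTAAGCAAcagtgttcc
On the wild-type arrays 1, 2 and 3 *F11* stood at 11.13, 10.98 and 10.47 log2, on ob/ob vehicle arrays at 8.76, 7.83 and 7.45 and on extract arrays at 7.99, 8.37 and 8.46. Every wild-type value was above every ob/ob value, and the 6 ob/ob arrays lay between 7.45 and 8.76. The mean fell from 10.86 ± 0.35 (SD, n = 3) to 8.01 ± 0.67, a difference of −2.85 (SE 0.35, adjusted p = 0.00345), or 7.19-fold. It was −2.59 for extract against wild type (SE 0.35, adjusted p = 0.00608). Among the alternatives run, *F11* was called in all 16 for each of these comparisons, with adjusted p at most 0.0247 and 0.0413.

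**Figure D1:**
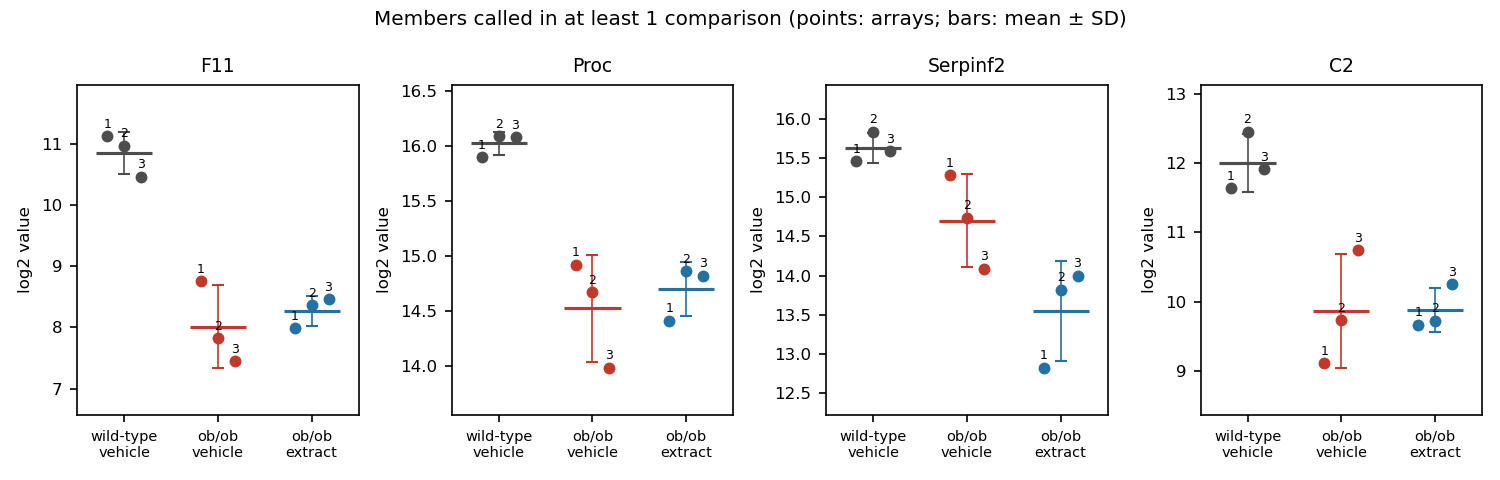
Log2 values of *F11*, *Proc*, *Serpinf2* and *C2* on each of the 9 arrays; numbers beside the points are replicate numbers, horizontal lines are group means and error bars are SD. *F11*, *Proc* and *C2* are lower on all 6 ob/ob arrays than on any wild-type array, and *Serpinf2* is lowest on the extract arrays, at 12.82 to 14.00.

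The other contact and intrinsic pathway genes did not pass the test in any comparison. *F8*, the cofactor that factor IXa needs, read 8.84, 8.60 and 7.94 in wild type, 9.44, 9.34 and 9.14 in ob/ob vehicle and 9.24, 8.92 and 9.53 with extract, so both ob/ob groups lay above wild type with no overlap. The difference was 0.85 (SE 0.29, adjusted p = 0.159) for ob/ob vehicle. Over the 10 sinusoidal endothelial markers the mean per array was 7.61, 7.60 and 7.31 log2 in wild type, 8.39, 8.45 and 6.91 in ob/ob vehicle and 7.23, 7.70 and 7.70 with extract, and all 10 were above the olfactory level on at least 1 array. This mean moved with *F8* on ob/ob vehicle arrays 1 and 2 and not on array 3, where it was lowest and *F8* stayed at 9.14. With the extract the mean overlapped wild type while *F8* lay above it. By marker, 8 of the 10 were higher in ob/ob vehicle than in wild type. *Stab2* and *Clec4g* were lower (−0.82 and −0.23), and none of the 10 passed the test. The part of these markers in the *F8* values was not tested. *F9*, the vitamin K-dependent protease next in line, was at 12.94, 12.95 and 14.41 on ob/ob vehicle arrays against 13.06, 12.95 and 13.17 in wild type, so array 3 alone was high and the difference was 0.37 (SE 0.38, adjusted p = 0.686).

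Factor XII and both kininogen genes had small differences. *F12*, the zymogen that starts the contact system, lay between 12.54 and 12.99 log2 on all 9 arrays. *Kng2* read 13.80, 13.78 and 14.00 in wild type, 13.32, 13.80 and 13.50 in ob/ob vehicle and 13.52, 13.97 and 13.90 with extract, and its groups overlapped. The paralogous *Kng1*, which encodes the precursor of bradykinin, had 18.60, 18.75 and 18.48 in wild type, 19.02, 18.94 and 18.21 in ob/ob vehicle and 18.03, 18.65 and 18.84 with extract. For extract against ob/ob vehicle the differences were 0.26 for *Kng2* (95% interval −0.28 to 0.79) and −0.22 for *Kng1* (−0.89 to 0.45). The 2 genes are similar in sequence, and how far their probes share signal was not tested.

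None of the 5 genes of the tissue factor and common pathway, *F3* at background among them, passed the test. *F7*, the protease that tissue factor binds, was at 10.56, 10.29 and 9.29 in wild type and 9.45, 9.93 and 8.70 in ob/ob vehicle, with 8.89, 9.79 and 9.87 on the extract arrays. These groups overlapped, and the difference of ob/ob vehicle from wild type was −0.69 (SE 0.43, adjusted p = 0.464). *F10*, which encodes the protease that makes thrombin, stood at 12.32, 12.57 and 12.17 in wild type, 12.48, 12.33 and 12.11 in ob/ob vehicle and 11.10, 11.61 and 12.57 with extract. Its extract mean rests on arrays 1 and 2, and the difference from ob/ob vehicle was −0.55 (95% interval −1.32 to 0.23, adjusted p = 0.836). Prothrombin, *F2*, lay between 17.57 and 18.35 on all arrays, with differences of 0.19 and −0.24 for ob/ob vehicle against wild type and extract against ob/ob vehicle (adjusted p = 0.770 and 0.892). The factor V gene *F5*, whose product is the cofactor of factor Xa, differed by −0.03 and 0.15, and its arrays ran from 13.81 to 15.17.

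The 3 fibrinogen chains are made in hepatocytes from neighbouring genes and assembled in equal numbers, and none of their transcripts passed the test in any comparison. The promoters of these genes in the same RefSeq table are shown together because the 3 genes lie together and are acute phase genes; capitals mark letters matching the HNF1 palindrome with up to 2 mismatches, TTGCNNAA (C/EBP), CTGGGAA (the type 2 interleukin-6 element), TTCNNNGAA (STAT) or AGGTCA (a nuclear receptor element), on either strand.
Fga (chr3:83025903-83026152, plus strand): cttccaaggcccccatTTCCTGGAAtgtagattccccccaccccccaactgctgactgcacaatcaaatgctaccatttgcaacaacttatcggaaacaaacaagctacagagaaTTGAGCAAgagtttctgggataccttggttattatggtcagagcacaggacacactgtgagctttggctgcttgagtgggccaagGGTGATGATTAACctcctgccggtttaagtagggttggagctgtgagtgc
Fgb (chr3:83049864-83050113, minus strand): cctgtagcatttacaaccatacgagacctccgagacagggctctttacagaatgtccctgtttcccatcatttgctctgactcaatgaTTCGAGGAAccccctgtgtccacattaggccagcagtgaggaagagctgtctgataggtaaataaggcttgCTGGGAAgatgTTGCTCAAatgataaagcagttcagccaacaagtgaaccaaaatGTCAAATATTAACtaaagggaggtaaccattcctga
Fgg (chr3:83007474-83007723, plus strand): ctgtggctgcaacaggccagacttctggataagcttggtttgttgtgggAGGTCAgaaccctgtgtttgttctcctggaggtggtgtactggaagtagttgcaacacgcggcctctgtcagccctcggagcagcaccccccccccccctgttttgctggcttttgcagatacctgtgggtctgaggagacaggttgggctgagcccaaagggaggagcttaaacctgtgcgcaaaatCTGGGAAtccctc
HNF1 and C/EBP matches were in the windows of *Fga* and *Fgb*, at 50 to 38 and 135 to 128 bases before the start in *Fga* and at 36 to 24 and 80 to 73 in *Fgb*. CTGGGAA was in those of *Fgb* and *Fgg*, at 91 to 85 and 13 to 7 bases. Of all 32851 promoter windows of this length 1.24% held the HNF1 match, 9.56% TTGCNNAA, 9.10% CTGGGAA, 7.02% TTCNNNGAA and 14.0% AGGTCA. The FOXA core TGTTTGC, in 4.30% of all windows, and the HNF4 core CAAAGTCCA, in 0.384%, were also searched and were in none of the windows printed here. No motif in this search overlapped another in these windows, and a match is no evidence of binding.

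*Fgb* values were 18.87, 19.03 and 18.92 in wild type, 17.50, 17.73 and 18.60 in ob/ob vehicle and 18.04, 18.35 and 18.26 with extract. All 6 ob/ob arrays were below all wild-type arrays, and ob/ob vehicle 3 was nearest to them. The difference was −1.0 (SE 0.30, adjusted p = 0.111) for ob/ob vehicle against wild type, which did not pass the test. Without both arrays that stood apart it was −1.33 (adjusted p = 0.0115). *Fga* read 19.63, 19.82 and 19.78 in wild type, 19.31, 19.33 and 19.65 in ob/ob vehicle and 18.95, 19.25 and 19.33 with extract, with differences of −0.31 and, for extract against wild type, −0.57 (adjusted p = 0.298). *Fgg* had 19.67, 19.64 and 19.58 in wild type, 19.63, 19.51 and 19.73 in ob/ob vehicle and 19.37, 19.65 and 19.64 with extract, overlapping throughout. *Fga* was the highest value of its array on wild-type vehicle 3, and *Fgg* lay within 0.20 to 0.55 log2 of its array's maximum, so changes in both may be compressed there. *Fgb* and *Kng1* came within 0.81 and 0.91 log2 of it.

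*F13b*, the carrier subunit of the factor that crosslinks fibrin, was at 12.08, 11.12 and 10.78 in wild type, 11.93, 12.05 and 12.21 in ob/ob vehicle and 11.69, 12.33 and 12.44 with extract. Wild-type array 1 overlapped the ob/ob groups and the other wild-type arrays were below them, for a difference of 0.74 (SE 0.35, adjusted p = 0.321).

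Beside these genes, the acute phase list of 20 genes outside the set, such as serum amyloid and orosomucoid, had a far higher mean on ob/ob vehicle 3. Its mean was 12.38, 12.68 and 12.01 log2 on the wild-type arrays, 13.24, 13.34 and 15.41 on ob/ob vehicle and 13.28, 13.20 and 12.67 on extract arrays. *Saa2* reached 18.75 on ob/ob vehicle 3 against 10.61 and 11.81 on arrays 1 and 2. Most of the list was highest of its group on that array. *Saa4*, *Lbp* and *Il1rn* were instead lowest there (16.15, 11.03 and 4.23), and *Hamp* lay between the other arrays. In ob/ob vehicle against wild type 4 of the 20 were called higher (*Orm2*, *Orm3*, *Lcn2* and *Lbp*), beside 2.28% of all clusters. Of the 20, 0 were called lower, beside 0.680% of all clusters. The groups did not overlap for 8 that were higher (9.71% of all clusters) and 2 that were lower (9.78%). These 2 were *Itih3* (−2.04, adjusted p = 0.0517 by limma) and *Hamp* (−0.87, adjusted p = 0.221). On ob/ob vehicle 3, among others, *Fgb*, *Fga*, *Cfb*, *C2*, *F9* and *Mbl2* were the highest of their group and *Serping1*, *Masp1*, *Masp2*, *C1ra* and *C1s1* the lowest. The part of that acute phase signal in these values was not tested, nor was that of the higher olfactory level on this array.

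Of the 6 inhibitors of coagulation *Proc* fell and the rest did not pass the test. *Proc* read 15.90, 16.09 and 16.08 in wild type, 14.92, 14.67 and 13.98 in ob/ob vehicle and 14.41, 14.86 and 14.82 with extract. No ob/ob array reached the lowest wild-type array. The difference was −1.50 (SE 0.28, adjusted p = 0.0230; 2.83-fold), from 16.02 ± 0.11 to 14.52 ± 0.49 (SD, n = 3). *Proc* missed the threshold on leaving out the second or the third wild-type array (adjusted p = 0.0947 and 0.0726) or the second ob/ob vehicle array (0.0705), and in a fit of only the 2 groups (0.0793). For extract against wild type *Proc* differed by −1.33 (SE 0.28, adjusted p = 0.0544), just short of the threshold, and 6 of 16 alternatives called it, the smallest adjusted p being 0.0127.

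Heparin cofactor II, *Serpind1*, stood at 16.42, 16.77 and 16.31 in wild type, 16.00, 15.82 and 15.53 in ob/ob vehicle and 15.50, 15.77 and 16.06 with extract. Both ob/ob groups were below wild type without overlap, with differences of −0.72 (SE 0.26, adjusted p = 0.177) and −0.72 (SE 0.26, adjusted p = 0.231), and neither passed. Antithrombin, *Serpinc1*, was at 17.79, 17.76 and 17.55 in wild type, 17.50, 17.61 and 17.18 in ob/ob vehicle and 17.77, 17.83 and 17.77 with extract. Its extract arrays were all above the ob/ob vehicle arrays, by 0.36 (95% interval −0.13 to 0.85, adjusted p = 0.831). Protein S, *Pros1*, which assists protein C, and *Proz*, which assists the inhibitor of factor Xa, differed by 0.72 and −0.47 (adjusted p = 0.466 and 0.588). *Thbd*, the endothelial thrombin receptor, was near background, at 4.27, 4.31 and 4.27 in wild type, 4.94, 4.84 and 4.62 in ob/ob vehicle and 3.95, 4.78 and 4.80 with extract, so its difference of 0.52 cannot be read as a change in level.

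Among the fibrinolysis genes *Serpinf2* was lower in extract-treated ob/ob liver than in wild type. *Serpinf2* encodes alpha-2-antiplasmin, the main inhibitor of plasmin. Its promoter window in the same table (chr11:75439502-75439751, minus strand) is shown because this is the fibrinolysis gene that was called; capitals mark AGGTCA, 126 to 121 bases before the start.
Serpinf2: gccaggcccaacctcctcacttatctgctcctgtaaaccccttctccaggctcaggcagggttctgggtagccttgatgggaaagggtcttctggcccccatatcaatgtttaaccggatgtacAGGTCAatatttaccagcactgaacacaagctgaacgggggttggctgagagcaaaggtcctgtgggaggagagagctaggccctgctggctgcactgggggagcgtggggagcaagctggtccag
Values were 15.46, 15.84 and 15.59 in wild type, 15.28, 14.74 and 14.09 in ob/ob vehicle and 12.82, 13.82 and 14.00 with extract. The 3 groups did not overlap, with wild type highest and extract lowest. Extract differed from wild type by −2.08 (SE 0.38, adjusted p = 0.0277; 4.24-fold). Ob/ob vehicle differed from wild type by −0.93 (SE 0.38, adjusted p = 0.242), and extract from ob/ob vehicle by −1.16 (SE 0.38, adjusted p = 0.741), neither past the threshold. The comparison with wild type missed the threshold on leaving out the second or the third wild-type array (adjusted p = 0.125 and 0.0846), the second ob/ob vehicle array (0.0511), or the first or the second extract array (0.0952 and 0.0998), and after centring each array on its median (0.0527). Without extract 1, the lowest array, the difference from ob/ob vehicle was −0.79.

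Plasminogen, *Plg*, had 18.16, 18.03 and 17.89 in wild type, 17.63, 17.43 and 17.10 in ob/ob vehicle and 17.34, 17.82 and 17.98 with extract. The ob/ob vehicle arrays lay below wild type without overlap and the extract arrays overlapped both, with differences of −0.64 (SE 0.26, adjusted p = 0.237) and, for extract against ob/ob vehicle, 0.33 (95% interval −0.24 to 0.90). *Vtn*, which encodes vitronectin, a plasma protein that stabilises the plasminogen activator inhibitor and also restrains complement, was at 19.69, 19.58 and 19.42 in wild type, 19.60, 19.46 and 19.23 in ob/ob vehicle and 18.16, 19.06 and 19.21 with extract. Its extract arrays were below both other groups, but extract 3 (19.21) was close to ob/ob vehicle 3 (19.23) and extract 1 was far lower. The difference from ob/ob vehicle was −0.62 (95% interval −1.28 to 0.04, adjusted p = 0.777), and ranged from −0.82 to −0.30 over 16 alternatives. *Vtn* came within 0.24 log2 of its array's maximum. The plasminogen activator genes had values at background, 3.13, 3.57 and 4.16 in wild type for *Plau* (urokinase), 3.91, 3.95 and 4.92 in ob/ob vehicle and 3.94, 4.20 and 3.34 with extract, and 3.65 to 4.77 over all arrays for *Plat* (tissue plasminogen activator).

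**Figure D2:**
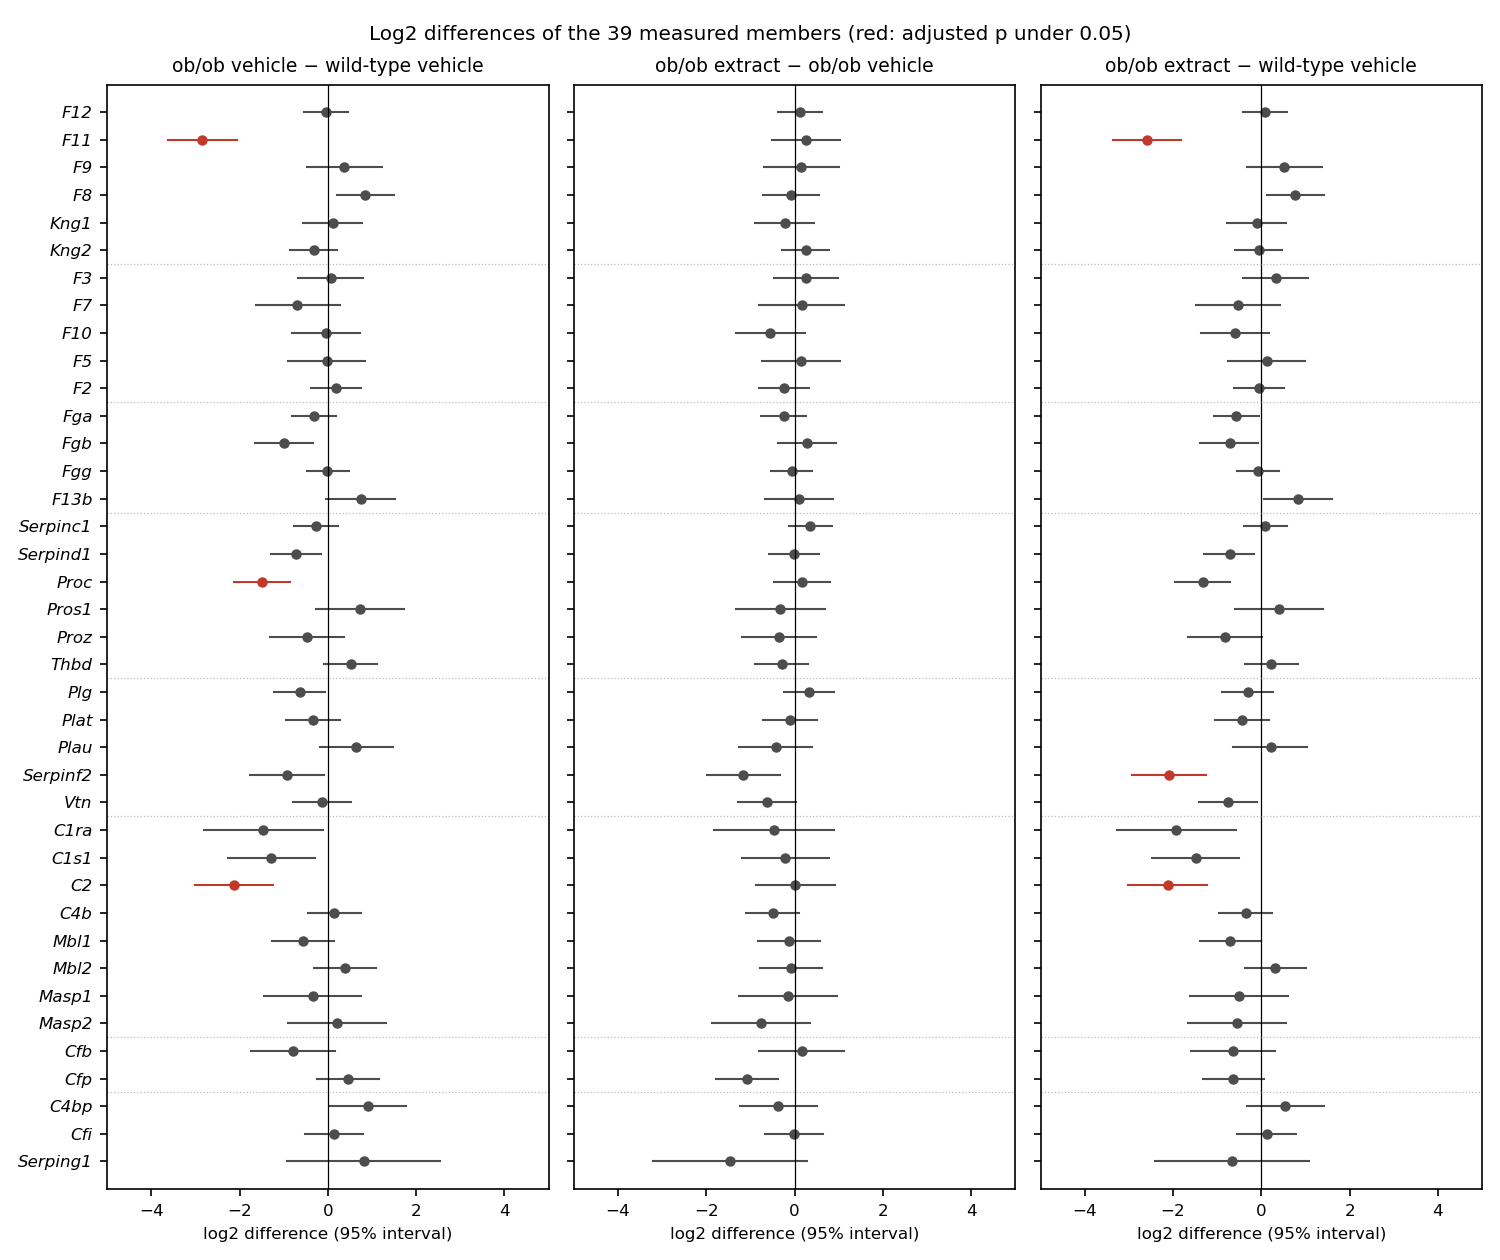
Log2 differences of the 39 measured genes in the 3 comparisons, ordered by role (dotted lines separate the role groups); points are limma estimates, lines 95% intervals and red marks adjusted p under 0.05. *F11*, *Proc* and *C2* are red in the left panel, 0 genes in the middle panel, and *F11*, *Serpinf2* and *C2* in the right panel.

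In the classical and lectin complement group, *C2* fell in both ob/ob groups. *C2* read 11.64, 12.45 and 11.91 in wild type, 9.12, 9.74 and 10.74 in ob/ob vehicle and 9.67, 9.73 and 10.25 with extract. All ob/ob arrays were below all wild-type arrays, with ob/ob vehicle 3 the highest of them. The difference was −2.13 (SE 0.40, adjusted p = 0.0222; 4.39-fold) for ob/ob vehicle and −2.12 (SE 0.40, adjusted p = 0.0333) for extract. The ob/ob vehicle difference missed the threshold on leaving out the second or the third wild-type array (adjusted p = 0.104 and 0.0648) or the first or the second ob/ob vehicle array (0.0831 and 0.0894), and in a fit of only the 2 groups (0.0798). The extract difference missed it on leaving out the second or the third wild-type array (0.147 and 0.0922), the second ob/ob vehicle array (0.0600), or any one extract array (0.131, 0.172 and 0.0694 for arrays 1, 2 and 3). These comparisons share the wild-type arrays and are not independent of each other.

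The C1 proteases had lower ob/ob values that did not pass the test. *C1ra*, whose product C1r cleaves C1s, stood at 12.91, 13.12 and 11.16 in wild type, 11.42, 11.78 and 9.61 in ob/ob vehicle and 10.24, 10.35 and 10.82 with extract. The spread within wild type and within ob/ob vehicle, with array 3 lowest in each, was 1.08 and 1.16 log2 (SD), and the differences from wild type were −1.46 (SE 0.61, adjusted p = 0.256) and −1.93 with extract (adjusted p = 0.188). *C1s1*, the protease that cleaves C4 and C2, had 14.60, 14.72 and 13.93 in wild type, 13.33, 13.98 and 12.11 in ob/ob vehicle and 13.29, 12.49 and 13 with extract, and differences of −1.28 (SE 0.45, adjusted p = 0.169) and −1.49 (adjusted p = 0.170). The extract arrays of both genes were below all wild-type arrays. Without both arrays that stood apart *C1ra* was called in ob/ob vehicle (−1.41, adjusted p = 0.0147) and *C1ra* and *C1s1* with extract against wild type (−2.54 and −1.73, adjusted p = 6.24e-04 and 0.0108). The near copies *C1rb* and *C1s2* differed by −1.36 and −0.65 in ob/ob vehicle (adjusted p = 0.205 and 0.268), and how far probes for a gene also read its copy was not tested.

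The lectin pathway genes and *C4b* overlapped between wild type and ob/ob vehicle. *Masp2*, the protease that mannose-binding lectin carries, was at 14.46, 14.44 and 14.20 in wild type, 15.17, 15.21 and 13.36 in ob/ob vehicle and 13.01, 14.10 and 14.36 with extract, with ob/ob vehicle 3 and extract 1 far below the rest of their groups. Extract differed from ob/ob vehicle by −0.76 (95% interval −1.87 to 0.35, adjusted p = 0.841). *C4b*, which supplies the other part of the classical convertase, read 15.56, 15.42 and 14.93 in wild type, 15.35, 15.15 and 15.82 in ob/ob vehicle and 14.93, 15.13 and 14.79 with extract, the extract arrays lying below ob/ob vehicle without overlap (−0.49, 95% interval −1.09 to 0.11, adjusted p = 0.810). *Mbl1*, *Mbl2* and *Masp1* differed from wild type by −0.56, 0.39 and −0.34 in ob/ob vehicle, with adjusted p of 0.408, 0.589 and 0.788.

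Of the alternative pathway genes measured, *Cfb* and *Cfp*, neither passed the test. *Cfb* encodes factor B, the counterpart of *C2* in the alternative convertase and its neighbour on the chromosome. Its values were 14.49, 15.18 and 14.90 in wild type, 13.41, 13.57 and 15.19 in ob/ob vehicle and 14.43, 14.16 and 14.05 with extract. Ob/ob vehicle 1 and 2 were the lowest of all arrays and ob/ob vehicle 3 the highest, so the difference from wild type of −0.80 (SE 0.43, adjusted p = 0.387) became −1.35 (adjusted p = 0.0208) without both arrays that stood apart. The *C2* value without them was −2.62 (adjusted p = 0.00172).

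Among complement regulators *Serping1* had the widest spread of the set. It encodes C1 inhibitor, which blocks C1r, C1s, the lectin proteases and also kallikrein and factor XIIa. *Serping1* read 12.99, 13.45 and 13.07 in wild type, 15.26, 14.88 and 11.80 in ob/ob vehicle and 11.46, 12.86 and 13.22 with extract. Ob/ob vehicle 1 and 2 were the highest of the 9 arrays while ob/ob vehicle 3 and extract 1 were the lowest. The SD in ob/ob vehicle was 1.90, and the difference from wild type was 0.81 (SE 0.79, adjusted p = 0.662). Without both arrays that stood apart it was called higher in ob/ob vehicle (1.85, adjusted p = 0.0388) and lower with extract than with vehicle (−2.56, adjusted p = 0.0206). That fit has 2 ob/ob vehicle mice.

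*C4bp*, which encodes the alpha chain of the C4b-binding protein, was at 15.47, 14.83 and 13.77 in wild type, 15.51, 15.44 and 15.86 in ob/ob vehicle and 14.91, 15.29 and 15.50 with extract, with wild-type array 1 inside the ob/ob range, and differed by 0.91 (SE 0.39, adjusted p = 0.267). *Cfi*, the protease that inactivates C3b and C4b, lay between 14.61 and 15.67 on all arrays and differed by 0.13.

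**Figure D3:**
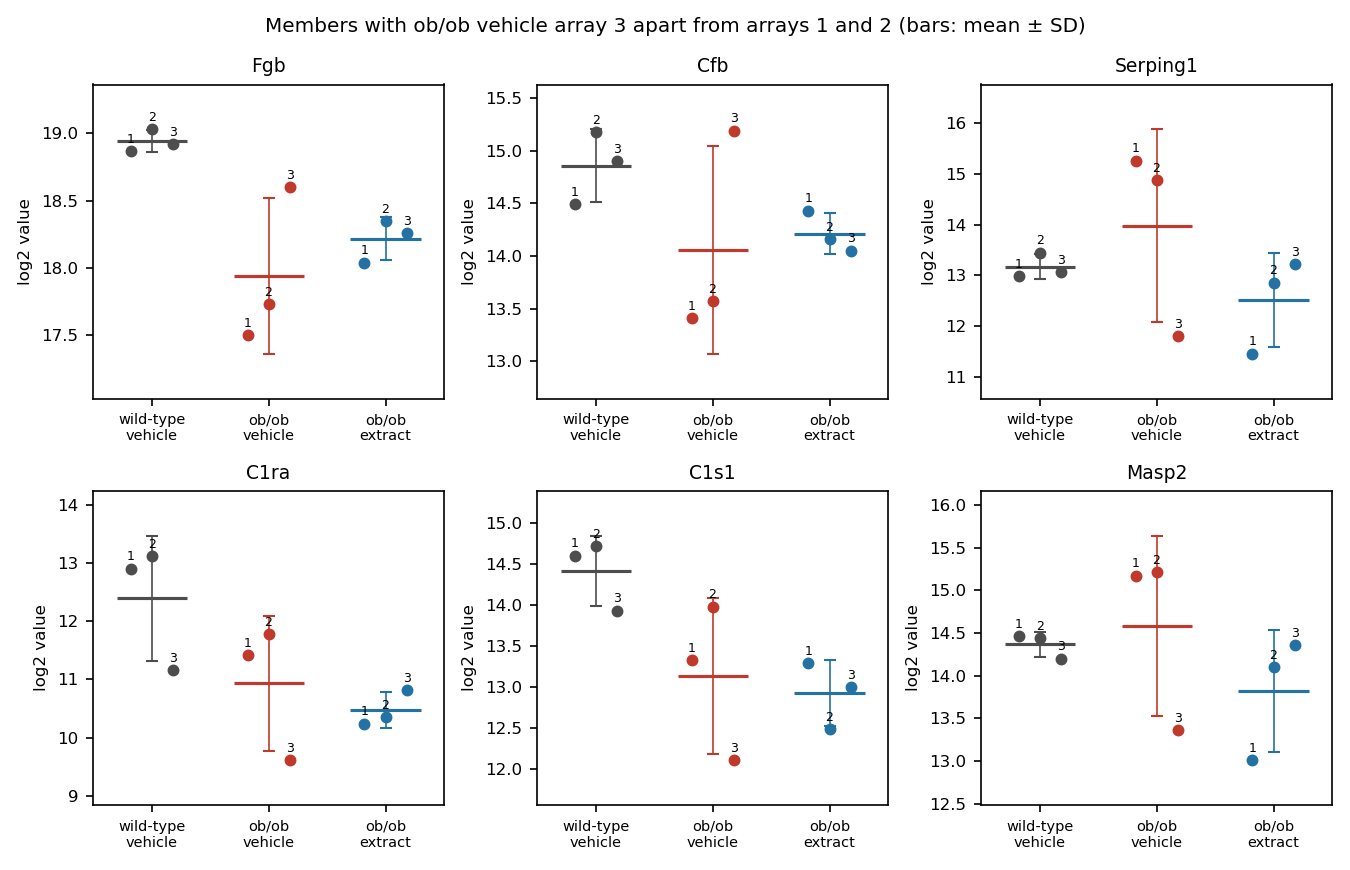
Log2 values of *Fgb*, *Cfb*, *Serping1*, *C1ra*, *C1s1* and *Masp2* on each array, with group means and SD; numbers are replicate numbers. Ob/ob vehicle 3 is the highest of its group in *Fgb* (18.60) and *Cfb* (15.19) and the lowest in *Serping1* (11.80), *C1ra* (9.61), *C1s1* (12.11) and *Masp2* (13.36).

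The 2 arrays that stood apart were picked for it, so leaving them out can add calls by itself. Calls in that fit are no separate support for a change. Without both arrays that stood apart, 7 of the 39 genes were called between ob/ob vehicle and wild type, which is 17.9% beside 7.86% of all clusters. *F11*, *Proc*, *C2*, *Fgb*, *Cfb* and *C1ra* were lower (2.15% of all clusters were) and *Serping1* was higher (5.71%). With those arrays left out, *Serping1* was the 1 gene of the 39 called between extract and ob/ob vehicle, lower, beside 1.62% of all clusters called and 1.41% called lower. Between extract and wild type 6 were called, all lower, beside 2.68% of all clusters called and 0.892% called lower: *F11*, *Proc*, *Serpinf2*, *C1ra*, *C1s1* and *C2*. On ob/ob vehicle 3, 8 of the 39 genes (20.5%) lay over 1 log2 from the mean of the other 2 arrays, a share like that of all clusters (20.9%). On extract array 1, 6 of the 39 genes (15.4%) were that far from the mean of its group's other arrays, all 6 below it, beside 4.31% of all clusters. They were *Serping1*, *Pros1*, *Masp2*, *Proz*, *Serpinf2* and *F5*, and the median of the 39 genes on that array lay 0.43 log2 below the other extract arrays, with 0.00 for all clusters. The median difference between extract and wild type over the 39 genes was −0.44, with −0.05 over all clusters, and was −0.14 without extract 1.

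**Figure D4:**
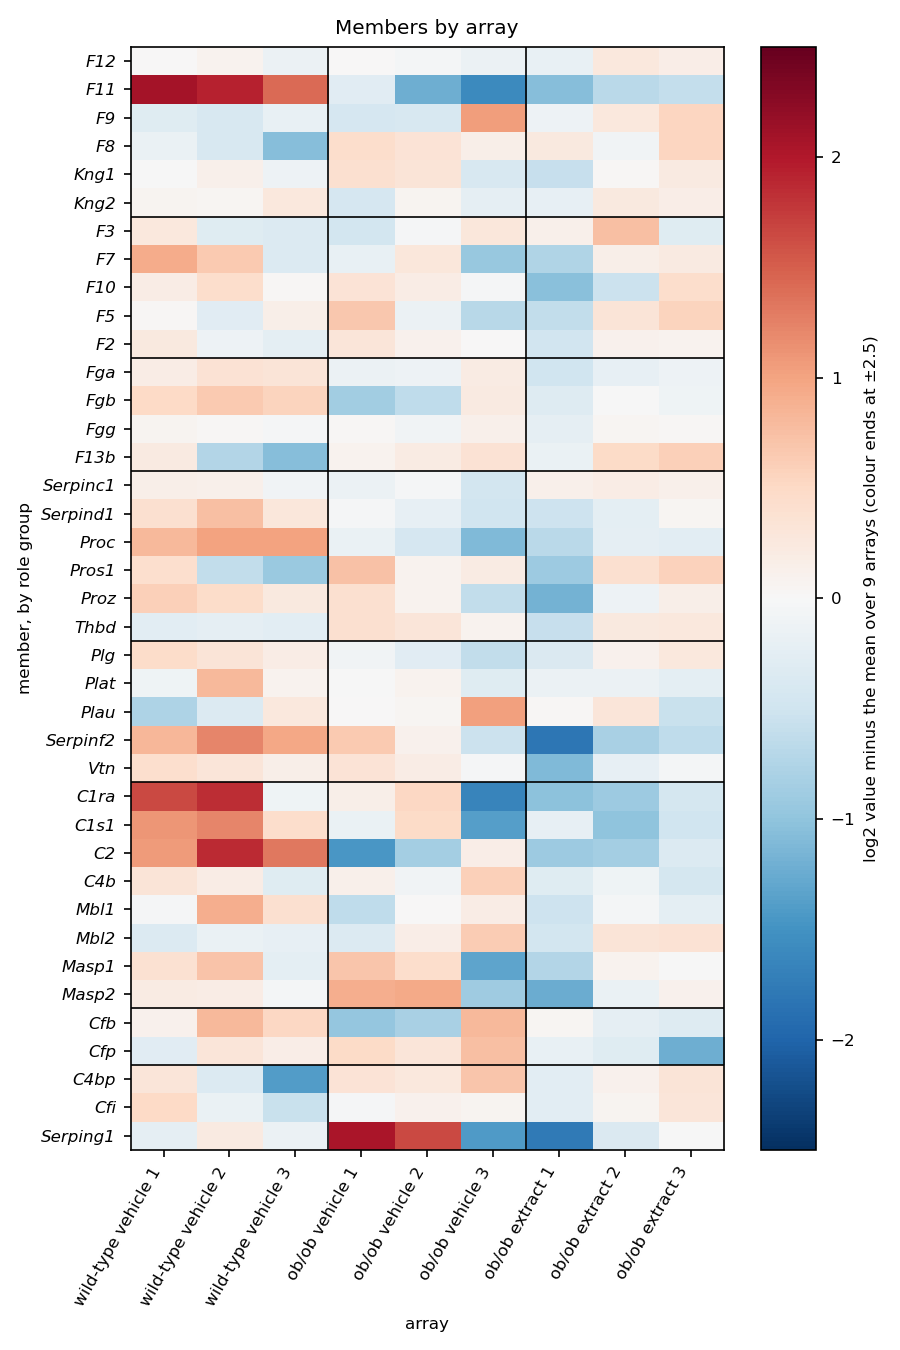
Log2 value of each of the 39 genes on each array minus that gene's mean over the 9 arrays, with role groups separated by lines and colour ending at ±2.5. The extract 1 column is below the gene's mean in most rows, with *Serpinf2* at 12.82 and *Serping1* at 11.46, while *F11* and *C2* are red on all 3 wild-type arrays.

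With the extract compared to vehicle in ob/ob mice, limma called 0 of the 39 genes and 0 of all clusters (0%). At an unadjusted p under 0.05 with a fold over 1.1 there were 2 of the 39 (5.13%, both lower, beside 1433 or 6.45% of all clusters, 2.90% lower): *Serpinf2*, given above, and *Cfp*. The groups did not overlap for 5 of the 39 (12.8%, beside 13.6% of all clusters), which were *Serpinf2*, *Cfp*, *C4b* and *Vtn* lower (6.08% of all clusters) and *Serpinc1* higher (7.47%). With these group sizes the 95% intervals were wide, and a difference that missed the threshold is not shown to be absent. For *F11*, *Proc* and *C2* the differences were 0.26 (95% interval −0.51 to 1.03), 0.17 (−0.46 to 0.80) and 0.02 (−0.87 to 0.91). The upper ends of these intervals were smaller than the distances of ob/ob vehicle from wild type, which were −2.85 (95% interval −3.62 to −2.07), −1.50 (−2.13 to −0.87) and −2.13 (−3.02 to −1.24). Both sets of differences use the same ob/ob vehicle arrays, so setting them side by side is no test. With the extract all 3 genes stayed below every wild-type array, but *Proc* was not called against wild type (adjusted p = 0.0544 by limma).

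*Cfp* had the smallest p of the set in this comparison. It encodes properdin, which stabilises the alternative convertase and is made mainly by leukocytes. *Cfp* read 7.38, 7.96 and 7.82 in wild type, 8.13, 7.96 and 8.42 in ob/ob vehicle and 7.48, 7.35 and 6.44 with extract, so every extract array was below every ob/ob vehicle array. The difference was −1.08 (SE 0.32, adjusted p = 0.707 by limma), and it ranged from −1.28 to −0.76 over the 16 alternatives. Kupffer cell and macrophage markers moved with it: over the 8 of 9 listed markers that were measured the mean was 7.27, 7.15 and 7.51 log2 on ob/ob vehicle arrays and 6.97, 6.61 and 5.99 on extract arrays, with 7.10, 7.18 and 6.74 in wild type. Of those 8, 7 had a lower mean with extract than with vehicle in ob/ob mice, none of them past the test, and *Clec4f* was higher (0.15). Only 2 of the 8 were above the olfactory level on all 9 arrays. The mean of the neutrophil markers ran from 4.14 to 5.18 over the arrays, with 4 of 6 markers at background on every array. The part of the macrophage markers in the *Cfp* values was not tested.

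**Figure D5:**
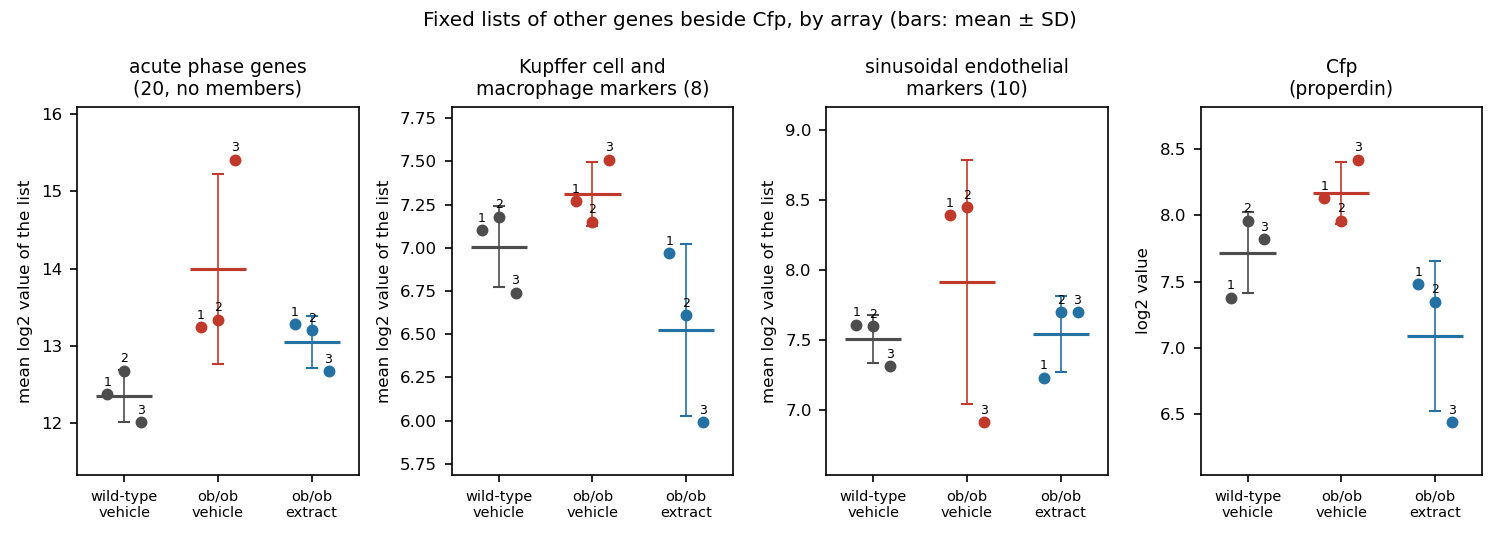
Mean log2 value per array of 20 acute phase genes outside the set, 8 Kupffer cell and macrophage markers and 10 sinusoidal endothelial markers, and the log2 value of *Cfp*, with group means and SD. The acute phase list is at 15.41 on ob/ob vehicle 3 and at most 13.34 elsewhere, and both the macrophage list and *Cfp* are lowest on extract 3 (5.99 and 6.44).

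Between extract-treated ob/ob mice and wild type 3 of the 39 genes were called, *F11*, *Serpinf2* and *C2*, all lower (7.69%, beside 1.29% of all clusters called, 0.315% lower and 0.977% higher, a split of 75.6% higher that became 61.2% after quantile normalization). The groups did not overlap for 16 of the 39 (41.0%, beside 21.7% of all clusters), 14 of them lower with the extract (10.6% of all clusters) and 2 higher (11.1%). These 14 were *F11*, *Fga*, *Fgb*, *Serpind1*, *Proc*, *Proz*, *Plat* (at background), *Serpinf2*, *Vtn*, *C1ra*, *C1s1*, *C2*, *Mbl1* and *Cfb*, while *F8* and *F9* were higher. By the design text's rule 10 were lower (5.82% of all clusters) and 2 higher (8.21%), together 30.8% beside 14.0% of all clusters. By role, the median difference was −0.64 for the alternative pathway genes (2 of 2 values below 0), −0.62 for the classical and lectin activators (7 of 8), −0.44 for fibrinolysis (4 of 5), and −0.32 for both fibrinogen with its crosslinking (3 of 4) and the inhibitors of coagulation (3 of 6). It was −0.05 for the tissue factor and common pathway (3 of 5), 0.02 for the contact and intrinsic factors (3 of 6) and 0.12 for the complement regulators (1 of 3). These role medians include extract 1, on which the 39 genes ran low as given above, and were not computed without it. Over all clusters 12018 of 22206 differences were below 0, with a median of −0.05.

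Of 55 further genes of these systems outside the set, 48 were measured. Between ob/ob vehicle and wild type 3 rose and 0 fell (2.28% and 0.680% of all clusters), all in coagulation and fibrinolysis, and 0 of the 23 measured complement genes were called. *Tfpi2*, an inhibitor of tissue factor and plasmin, rose from 7.99 ± 0.74 to 10.94 ± 0.16 log2 (SD, n = 3; difference 2.96, SE 0.38, adjusted p = 0.00414), with 8.97, 9.97 and 9.31 on the extract arrays. *Anxa2* and *S100a10*, which together form a cell-surface receptor for plasminogen and its activator, rose by 3.86 and 2.64 (adjusted p = 0.0129 and 0.0373). *Anxa2* in wild type (4.41, 5.09 and 5.98) was not above background, so the size of its change is at best a lower bound. With extract against ob/ob vehicle 0 of the 48 were called, and 1 was higher and 4 lower at an unadjusted p under 0.05, beside 790 and 643 of all 22206 clusters. *Tfpi2* was among these 4, at −1.53 (adjusted p = 0.634), its extract arrays lying between the other groups without overlap. With extract against wild type 0 of the 48 were called by limma, and 5 were higher and 4 lower at an unadjusted p under 0.05, beside 8.21% and 5.82% of all clusters.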

How the data were processed

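Liver RNA of 9 mice, 3 per group, was measured on Clariom S mouse arrays, 1 array each. The values are log2 signals that the authors deposited for 22206 transcript clusters, made per the labels and the design text with Transcriptome Analysis Console 4.0.2 and its SST-RMA method (background correction, normalization and summary of probes). No detection calls were used here, and the array's genome build is not given in the sources used here. Gene symbols came from the platform annotation (19572 clusters with 1 symbol, 0 with several, 2634 with none), and all 19572 matched RefSeq GRCm38.p6 by gene ID. Promoters are from RefSeq (GRCm38.p6), with entries for 27 of the 39 genes. The number of arrays limits the precision.

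Differences were tested with limma 3.58.1 (R 4.3.3) in 1 fit of 3 group means over all 9 arrays (6 residual degrees of freedom), with Benjamini-Hochberg adjustment over all clusters and a threshold of 0.05. The 3 comparisons share arrays. No label says whether arrays of a group came from separate litters, so p-values measure only the spread between these samples. The fit was tested on simulated data. Values on all 9 arrays are given for genes called in any comparison and for up to 2 genes per role group with the smallest p in each of ob/ob vehicle against wild type and extract against ob/ob vehicle, and further genes were added where a result touched them. The genes and lists were chosen with earlier results of these data known.

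Replicate numbers are shared between groups but the labels tie them to nothing. Deviations of same-numbered arrays correlated at 0.256, 0.262 and 0.450 between wild type and ob/ob vehicle, at −0.130, 0.0157 and −0.106 between ob/ob vehicle and extract and at −0.208, −0.0412 and −0.143 between wild type and extract. Alternatives were quantile normalization, median centring, a filter on the lowest 30% of clusters, array weights, only the compared groups, a replicate block, each array left out, both arrays that stood apart left out, and the design text's rule (unadjusted p under 0.05 and a fold over 1.1).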

Additional observations from a re-analysis of the deposited data

How the results depend on the processing

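For ob/ob vehicle against wild type, 658 clusters and 3 genes of the set were called, all 3 lower. With array weights these counts were 2137 and 5 lower, with only the 2 groups compared 207 and 1 lower, and by the design text's rule 3771, with 9 lower and 2 higher. Leaving out 1 array gave 147 (wild-type 2) to 1679 clusters (ob/ob vehicle 3), 1 gene lower (wild-type 2 or 3, or ob/ob vehicle 2) to 5 (ob/ob vehicle 3) and 0 to 1 higher; without both arrays that stood apart there were 1745 clusters, with 6 genes lower and 1 higher. For extract against ob/ob vehicle, where 0 were called, array weights gave 106 clusters, leaving out 1 array 0 to 51 (ob/ob vehicle 3), leaving out both 360 with 1 gene lower, and the design text's rule 1433 with 2 genes lower. For extract against wild type, with 287 clusters and 3 genes lower, array weights gave 796 and 6 lower, leaving out 1 array 77 (extract 2) to 598 (ob/ob vehicle 3), with 1 gene lower (wild-type 2 or 3, ob/ob vehicle 2, or extract 1 or 2) to 5 (ob/ob vehicle 3), leaving out both 595 and 6 lower, and the design text's rule 3115 with 10 lower and 2 higher. The median of the 39 genes in that comparison lay between −0.54 and −0.14 when 1 array was left out. With the replicate number as a block, 579, 0 and 283 clusters and 3, 0 and 3 genes were called in the 3 comparisons. The replicate block changed no call among the genes named. Only between wild type and ob/ob vehicle did deviations of same-numbered arrays correlate above 0 for all 3 numbers. Deviations within a group sum to 0, so those correlations are not independent and do not show a pairing.

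In extract against ob/ob vehicle, small differences changed sign in 10 cases. Leaving out 1 array gave *C2* −0.36 to 0.45, with −0.05 and −0.17 without the second ob/ob vehicle and the third extract array, and *Cfb* −0.17 to 0.72, with −0.09 without the second ob/ob vehicle array. It gave *F11* −0.02 to 0.63, *Proc* −0.10 to 0.37 and *Kng1* −0.47 to 0.02. Leaving out both arrays at once also turned *F11* (−0.02) and *Proc* (−0.10). Of the other named values under alternatives, 656 kept direction and call, 16 became called and 21 lost the call; the cause was not tested. Low signals near the olfactory level limit *Thbd*, *Plat*, *Plau* and *F3*, and closeness to the array maximum limits *Fga*, *Fgg* and *Vtn*.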
